A study of Gallus gallus with 48 samples.

Results

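Cycloheximide (CHX), an inhibitor of protein synthesis, was compared with no CHX in chicken embryonic pituitary cells after 3 h of corticosterone (CORT), the main glucocorticoid of birds. Arrays of cells given CHX for 1.5 h and then CORT for 3 h were set against arrays of cells given CORT for 3 h alone, 4 in each group, so that 8 of the 48 arrays of the study carried the comparison. All features were described, 11207 in number, of which 5644 were named genes and 5563 were probes without a gene name. The question was which transcripts differed, after 3 h of the hormone, when the cells had been given a blocker of translation before it.

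The cells were primary cells of the anterior pituitary from chicken embryos at embryonic day 11, dispersed by trypsin and kept without serum. CORT was given at 1e-09 M and CHX at 10 micrograms per ml. The study held 12 groups of 4 replicates, with and without CHX, at 0, 1.5, 3, 6, 12 and 24 h of CORT. RNA was amplified and labelled with Cy3, and each sample was hybridised to a cDNA array beside a Cy5 pool of all 48 samples. Below, the CHX group received CHX and then CORT for 3 h, and the CORT group received CORT for 3 h only. Both groups held CORT, so the comparison shows the effect of CHX in the presence of the hormone. The labels' protocols do not state whether the CORT group was held for a matching 1.5 h before CORT, or if CHX stayed in the medium alongside CORT, so any such difference cannot be told apart from CHX itself. The labels call the replicates biological without saying that they came from separate dispersions, so p-values rest on a spread between samples that may be technical.

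Glucocorticoids enter the cell and bind the glucocorticoid receptor, which moves to the nucleus and raises or lowers the transcription of target genes. Targets that respond without new protein are called primary, and those that need a protein made first are called secondary, a distinction commonly drawn with CHX. CHX also acts by itself: it spares labile transcripts whose decay depends on translation or on short-lived proteins, and it removes short-lived repressors, so that immediate-early genes and the gene for the NF-kB inhibitor NFKBIA are classically raised by it. In the embryonic chicken pituitary, glucocorticoids are known for bringing forward the differentiation of growth hormone cells.

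All values were read as log2 ratios of a sample to the pool, so that a level of 0 is the average of the study and a difference of 1 is a 2-fold change. The base of the logarithm is not stated, so fold changes rest on that reading. The direction of the ratio, sample over pool, was likely rather than stated: FKBP5, a classical glucocorticoid target, was higher with CORT than at 0 h in 10 of 10 comparisons. Under the opposite reading every direction given here would turn. A ratio to a pool of the same cells cannot show whether a marker of the pituitary was present, and in such bulk samples fewer cells of a type and less RNA per cell cannot be told apart.

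Replicate 4 of the CHX group stood apart from the other arrays of its group. Across probes its correlation with the other 3 averaged -0.52, against 0.18 to 0.24 for each of those, and pairs in that group ran from -0.69 to 0.79. Pairs in the CORT group ran from -0.47 to 0.43, and pairs of all 48 arrays from -0.76 to 0.87. Per the labels every array carried the sample in Cy3, and no array's sign was turned in the main fit. CHX replicate 4 and CORT replicate 4 deviated together from their group means (correlation 0.83). Why CHX replicate 4 correlated below 0 with its own group, and whether its direction is right, was not tested. The results were therefore also computed without it and with its sign turned. Along the axis that held 51.6% of the spread within groups, the CHX group stood at -25.7, -23.3, -9.21 and 24.9 (mean -8.33). The CORT group stood at -22.4, 7.40, -6.92 and 24.6 (mean 0.67), so that the groups overlapped on it. Its positive end was set as the one with ribosomal protein genes higher in sum. In every group of the study the array numbered 4 lay above its group mean on this axis. The array numbered 1 lay below, except in CHX then CORT for 12 h. What equal numbers share is not stated. The 8 arrays had 15164 to 16345 probes with a value, medians between -0.04 and 0.04 and SDs between 0.30 and 0.32.

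CHX changed few transcripts past the threshold of limma (Benjamini-Hochberg adjusted p under 0.05 over all features) in the main fit. That fit held no term for the replicate number. Of 11207 features, 18 passed (0.161%), 13 higher (0.116%) and 5 lower (0.0446%) in the CHX group. Of these, 11 had a gene name, 8 of them higher and 3 lower. At an unadjusted p under 0.05 there were 744 features (6.64%), 328 higher (2.93%) and 416 lower (3.71%). Groups did not overlap for 16 of the 18 features and for 10 of the 11 named genes, against 383 of all features (3.42%), 244 higher (2.18%) and 139 lower (1.24%). The median difference over all features was 0.03. Above 0 lay 6373 of them (56.9%) and below 0 lay 4834.

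The count of 18 rested on single arrays. Without CHX replicate 1, 2, 3 or 4 it was 4, 26, 0 and 41. Without CORT replicate 1, 2, 3 or 4 it was 16, 0, 7 and 8. With CHX replicate 4 left out the balance turned to 11 higher and 30 lower, and with its sign turned 44 passed, 7 higher and 37 lower. Of the 18, 15 were among the 41 and 10 among the 44. Here and below, the settings without or with turned CHX replicate 4 kept CORT replicate 4. That array deviated from its group mean together with CHX replicate 4. With number 4 left out of every group, a fit with fewer arrays, 1 feature passed, 0 higher and 1 lower. With number 1, 2 or 3 left out of every group 3, 0 and 0 passed. With the replicate number as a block in the fit 68 passed, 32 higher and 36 lower, and all 18 were among them. Among those gained were HN1, MGEA5, MYH10, RAB24, HSPA8, TTC4, DUSP16 and PTBP2 (limma adjusted p 0.00372 to 0.0492). The values of single genes below are therefore given array by array, and passing there refers to the main fit unless another is named.

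NFKBIA encodes the inhibitor that holds NF-kB in the cytoplasm, and it is a known target both of NF-kB and of glucocorticoids. It measured 0.09, 0.21, 1.09 and 0.42 in CHX replicates 1 to 4, and -0.73, -1.44, -1.17 and -0.87 in CORT replicates 1 to 4. Every array of the CHX group lay above every array of the CORT group, and replicate 3 was the highest. The difference was 1.51 (SE 0.28, 95% confidence interval 0.95 to 2.07, adjusted p = 0.00857), a 2.84-fold higher level. Without CHX replicate 4 it was 1.52 (adjusted p = 0.0155), and with that array turned 1.29 (adjusted p = 0.0294). The call was lost in 6 of 25 alternative settings, in none of which a feature was called higher. These were the fits without CHX replicate 3 or CORT replicate 2, and with the compared groups alone. The others were those without number 2, 3 or 4 in every group.

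PLEKHG1, which encodes a protein with a pleckstrin homology domain, measured -0.01, -0.06, 0.41 and 0.20 with CHX and -0.54, -1.18, -0.65 and -0.42 without. The groups did not overlap, and the difference was 0.83 (SE 0.15, adjusted p = 0.00857). CPSF4, a subunit of the complex that cuts and polyadenylates pre-mRNA, measured 0.40, 0.14, 0.31 and -0.06 with CHX and -0.30, -1.18, -0.49 and -0.61 without. Here CORT replicate 2 was far below the rest, and the groups again stayed apart (difference 0.84, SE 0.17, adjusted p = 0.0184). Both genes passed also without CHX replicate 4 and with its sign turned. Neither passed with number 2, 3 or 4 left out of every group, where no feature was called higher. Over the 25 alternative settings PLEKHG1 passed in 19 and CPSF4 in 16.

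WWP2, a ubiquitin ligase of the HECT type, stood at 0.15, -0.03, 0.50 and 0.05 with CHX and at -0.23, -0.63, -0.50 and -0.31 without. No array of the CHX group was as low as any of the CORT group, and the difference was 0.58 (SE 0.12, adjusted p = 0.0184). Its probes differed by 0.38 and 0.78. PARK2, which encodes the ubiquitin ligase parkin, stood at 0.09, 0.07, 0.36 and 0.09 with CHX and at -0.12, -0.45, -0.25 and -0.36 without. The difference of 0.45 (SE 0.10) was the smallest among the 18 called features and passed at an adjusted p of 0.0465.

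ATF4 is the transcription factor that carries the cell's response to amino acid shortage and other stresses, and its own translation is controlled by upstream reading frames. It measured -0.05, -0.37, 0.45 and 0.59 with CHX and -0.90, -0.71, -1.04 and -0.26 without. The groups overlapped, since CHX replicate 2 lay below CORT replicate 4, and the difference was 0.88 (SE 0.19, adjusted p = 0.0401). Its 2 probes disagreed: one differed by 1.68 and the other by 0.09. The call was lost without CHX replicate 4 (0.74, adjusted p = 0.0979). With that array turned the difference was 0.59 (adjusted p = 0.158).

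STX10, a SNARE of traffic between endosomes and the Golgi apparatus, measured 0.06, 0.13, 0.66 and 0.28 with CHX and -0.34, -0.52, -0.02 and -0.26 without. STMN4, a neural member of the microtubule-destabilising stathmins, measured 0.13, 0.03, 0.33 and 0.36 with CHX and -0.23, -0.44, -0.29 and -0.20 without. Neither gene's groups overlapped, and both passed narrowly, at 0.57 (SE 0.13) and 0.50 (SE 0.11), each with an adjusted p of 0.0465. STMN4 had probes at 0.95 and 0.06. Without CHX replicate 4 the adjusted p was 0.0505 for STX10 and 0.0979 for STMN4, so that neither passed.

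The named genes that fell were 3 in number. SAV1, the Salvador scaffold that brings together the kinases of the Hippo growth-control pathway, stood at -0.39, -0.41, -0.72 and 0.03 with CHX and at 0.09, 0.30, 0.45 and 0.33 without. CHX replicate 4 came closest to the CORT group without reaching it. The difference was -0.66 (SE 0.13, adjusted p = 0.0184), and without that array -0.80 (adjusted p = 0.00208). Its 3 probes were all below 0, at -0.86, -0.13 and -0.99.

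TWSG1, a secreted protein that binds bone morphogenetic proteins, measured -0.17, -0.07, -0.54 and 0.08 with CHX and 0.17, 0.74, 0.68 and 0.40 without. The groups were separate, with a difference of -0.67 (SE 0.15, adjusted p = 0.0401). CCNYL1, a relative of the membrane-bound cyclin Y, measured -0.24, 0.12, 0.00 and -0.04 with CHX and 0.48, 0.46, 0.82 and 0.42 without. These groups were separate too (difference -0.58, SE 0.13, adjusted p = 0.0401), and CORT replicate 3 lay well above the other 3. Both calls stood without CHX replicate 4 and with it turned. Over all 25 alternative settings, however, TWSG1 passed in only 13 and CCNYL1 in 12. The plot of the 11 named genes shows each array, with replicate 4 drawn as an open diamond.

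**Figure D1:**
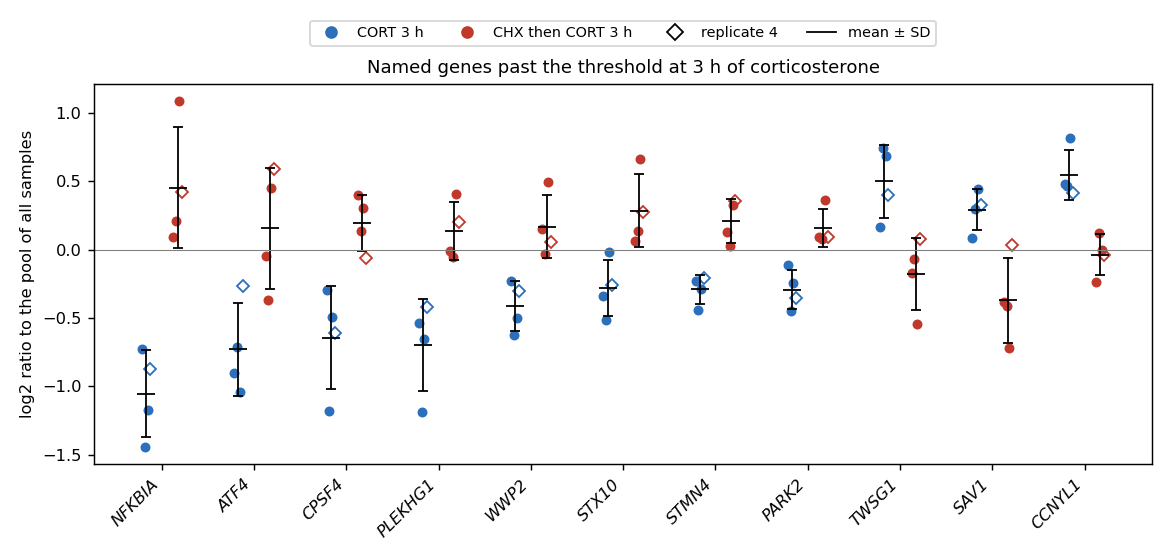
Log2 ratio to the pool (vertical axis) of the 11 named genes past the threshold, for each of the 4 CORT arrays (blue) and 4 CHX arrays (red); open diamonds are replicate 4, and black bars give the mean and SD. NFKBIA shows the widest gap, with CHX arrays from 0.09 to 1.09 and CORT arrays from -1.44 to -0.73, and only ATF4 has overlapping groups.

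The 7 probes without a gene name that passed included the largest difference called, that of probe_42.6.9. It measured 0.35, -0.23, 1.54 and 0.87 with CHX and -1.22, -1.59, -1.26 and -0.99 without, a difference of 1.90 (SE 0.34, adjusted p = 0.00857). The groups did not overlap. Another, probe_22.7.3, rose by 1.38 (SE 0.25, adjusted p = 0.00857), and of the 2 that fell the larger was probe_11.10.19, by 1.08 (SE 0.22, adjusted p = 0.0184). What they encode is not stated here, since neither the array annotation nor the current gene table named them.

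Some of the widest gaps between the groups were in genes that did not pass and in which CHX replicate 4 lay near the CORT group. Over all features 27 differed by at least 1 in size, and 5 of them passed. MGEA5, the enzyme that removes O-linked N-acetylglucosamine from proteins, measured -2.44, -1.92, -3.86 and 0.04 with CHX and 0.25, 1.14, -0.31 and 1.04 without. CHX arrays 1 to 3 were far below the CORT group and replicate 4 lay inside it. The difference was -2.58 (SE 0.62, adjusted p = 0.0776), and -3.27 without replicate 4 (adjusted p = 0.0143).

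HSPA8, the constitutive Hsp70 chaperone of the cytosol, had the same shape. It stood at -1.62, -1.11, -3.09 and 0.19 with CHX and at 0.04, 1.19, -0.07 and 0.95 without, and again only CHX replicate 4 reached the CORT group. The difference was -1.94 (SE 0.51, adjusted p = 0.132), or -2.47 (adjusted p = 0.0155) without that array. Its 3 probes differed by -2.77, -1.20 and -1.83, so that the low level did not hang on 1 spot.

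HN1 measured -1.16, -0.73, -1.24 and 0.36 with CHX and 0.10, 1.40, 0.47 and 0.96 without. As before, replicate 4 was the 1 CHX array above any CORT array (difference -1.42, SE 0.34, adjusted p = 0.0776). MYH10, the heavy chain of non-muscle myosin IIB, and RAB24, a Rab GTPase linked to autophagy, were separate between groups, at -0.83 (SE 0.20) and -0.64 (SE 0.16), both with an adjusted p of 0.0776. SYDE2 differed by -1.16 (adjusted p = 0.117), but its probes stood at 0.18 and -2.50. TKTL1, related to the transketolase of the pentose phosphate pathway, differed by -0.80 and PRDX4, a peroxiredoxin of the endoplasmic reticulum, by -0.47, both with an adjusted p of 0.121. Without CHX replicate 4, HN1, MYH10, RAB24, SYDE2 and TKTL1 passed (adjusted p 0.0143 to 0.0272) and PRDX4 did not (0.0505). With the replicate number as a block SYDE2, TKTL1 and PRDX4 passed too (limma adjusted p = 0.0128, 0.0248 and 0.04998).

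On the higher side, TTC4, a co-chaperone with tetratricopeptide repeats, measured -0.03, -0.02, -0.11 and 0.08 with CHX and -0.43, -1.03, -0.77 and -0.57 without. The groups were separate, yet the gene did not pass (0.68, SE 0.16, adjusted p = 0.0776). DUSP16, a phosphatase of the stress-activated MAP kinases, measured 0.11, -0.20, 0.87 and 0.57 with CHX and -0.53, -0.69, -0.39 and -0.51 without. It was also separate between groups and did not pass (0.87, SE 0.21, adjusted p = 0.0776), and its probes differed by 0.64 and 1.10.

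**Figure D2:**
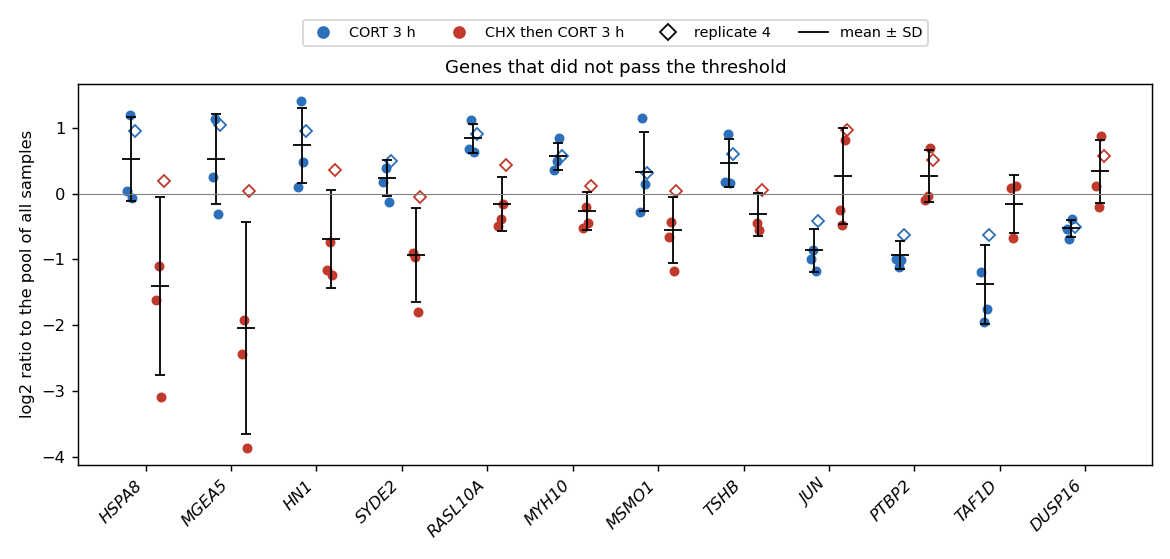
Log2 ratio to the pool (vertical axis) of 12 genes that did not pass, for each CORT array (blue) and CHX array (red), with the mean and SD as black bars and replicate 4 as open diamonds. In HSPA8 and MGEA5 the CHX arrays 1 to 3 lie between -3.86 and -1.11, while replicate 4 lies at 0.19 and 0.04, among the CORT arrays.

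Among glucocorticoid-induced genes, 1 of 17 measured members passed, NFKBIA, beside 0.161% of all features. Above 0 lay 10, beside 56.9% of all features, and the median difference was 0.03 in both (0.10 for the list without CHX replicate 4). FKBP5, a co-chaperone that dampens the glucocorticoid receptor, measured -0.15, -0.29, 0.38 and 0.26 with CHX and -0.09, 0.00, 0.16 and -0.02 without. The CORT arrays lay inside the range of the CHX arrays, and the difference was 0.04 (95% confidence interval -0.37 to 0.45, adjusted p = 0.978). Its sign turned to -0.03 without CHX replicate 4. A miss of the threshold does not show equal levels, and the interval allows a change of up to 0.45 in size.

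RASL10A, one of the small Ras-like GTPases, lay lower with CHX. It measured -0.49, -0.39, -0.16 and 0.43 with CHX and 0.68, 1.12, 0.64 and 0.91 without. All CHX arrays were below all CORT arrays, but the difference of -0.99 (SE 0.28, 95% confidence interval -1.57 to -0.42) did not pass (adjusted p = 0.211). Without CHX replicate 4 it was -1.19 (adjusted p = 0.0641), and with that array turned -1.21 (adjusted p = 0.032). Its relative RASD1, a Ras protein named for its induction by dexamethasone, differed by -0.32 (adjusted p = 0.896), with CORT arrays from 0.09 to 0.87 and CHX arrays from -0.02 to 0.41.

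PDK4, a kinase that restrains entry of pyruvate into the citric acid cycle, differed by 0.29 (SE 0.16, adjusted p = 0.78), and its groups overlapped. BCL6, a transcriptional repressor, differed by 0.36 (adjusted p = 0.726). The classical targets SGK1, a kinase of sodium transport, and DUSP1, a MAP kinase phosphatase, differed by 0.01 and 0.18. Neither passed.

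The list of immediate-early and short-lived genes held no member past the threshold at this time, and NFKBIA was not in it. Of 16 immediate-early and short-lived genes measured, 0 passed by limma, beside 0.161% of all features. At an unadjusted p under 0.05, 2 were higher and 2 lower, against 2.93% and 3.71% of all features. The median was 0.03, or -0.035 without CHX replicate 4. JUN, a component of the AP-1 factor and a textbook case of superinduction by CHX, measured -0.25, -0.48, 0.81 and 0.96 with CHX and -1.0, -0.86, -1.18 and -0.41 without. Replicates 3 and 4 of the CHX group were high and the other 2 were near the CORT group, so that the groups overlapped (difference 1.12, SE 0.31, adjusted p = 0.172). Probes of JUN gave 0.40, 1.49 and 1.48. MCL1, a survival factor with a labile protein, differed by 0.43 (adjusted p = 0.512), and its probes disagreed (0.97, 0.88, 0.21 and -0.35). EGR1, a zinc-finger factor of the early response, differed by 0.08, and HEY1, a repressor downstream of Notch, by -0.89 (adjusted p = 0.444).

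The 8 measured MAP kinase phosphatases and Sprouty regulators had a median of 0.16, with 0 past the threshold. Above 0 lay 6, beside 56.9% of all features. Besides DUSP16, DUSP7, a phosphatase of ERK, differed by 0.14, DUSP1 by 0.18 and DUSP10 by 0.45 (SE 0.24, adjusted p = 0.775). Among 12 genes of NF-kB, its inhibitors and cytokines, 9 were above 0, beside 56.9% of all features, and NFKBIA alone passed. TNFAIP2, induced by tumour necrosis factor, differed by 0.28, and IRF2, an antagonist of interferon-driven transcription, by 0.34. TRAF2, an adaptor of tumour necrosis factor receptors, differed by -0.31. Probes disagreed in sign for TNFAIP2 (0.64 and -0.08) and for TRAF2 (0.12 and -0.74). The median of this list was 0.05, and 0.20 without CHX replicate 4.

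Hormone and secretory genes of the pituitary showed no member past the threshold among 17 measured, beside 0.161% of all features. Above 0 lay 8, beside 56.9% of all features. The median was -0.06, or 0.02 without CHX replicate 4. TSHB, the beta subunit of thyrotropin, had no value on CHX replicate 1 and measured -0.44, -0.56 and 0.05 on the other 3, against 0.18, 0.91, 0.16 and 0.59 in the CORT group. Its groups did not overlap (difference -0.78, SE 0.31, adjusted p = 0.608). CPE, which trims prohormones, differed by -0.55 (adjusted p = 0.719), and CHGB, a granin of secretory vesicles, by -0.35 (adjusted p = 0.645). GH, growth hormone, differed by 0.06, PRL, prolactin, by 0.01, and POMC, the precursor of corticotropin, by 0.12. Of the 7 measured pituitary transcription factors 6 were below 0, beside 4834 of 11207 features. Their median was -0.05, and 0 passed the threshold. POU1F1, the factor of growth hormone, prolactin and thyrotropin cells, differed by -0.11 and TBX19, the factor of corticotropes, by -0.08.

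Chaperones were mostly lower without passing. Of 15 heat shock genes 9 were below 0 (median -0.12), beside 4834 of 11207 features. Besides HSPA8, the Hsp70 partner DNAJA1 differed by -0.57 (adjusted p = 0.744). Of 17 genes of the unfolded protein response 13 were below 0 (median -0.08), among them HSPA5, the Hsp70 of the endoplasmic reticulum, at -0.47 and RCN1, a calcium-binding protein of the same compartment, at -0.70 (adjusted p = 0.664). Without CHX replicate 4 these medians were -0.21 and -0.25. Mean levels per array overlapped between the groups in both lists, running from -0.55 to 0.03 with CHX and from -0.23 to 0.19 without for the heat shock genes.

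Of the genes of cytosolic ribosomal proteins, 37 of 40 lay below 0, with a median of -0.23 and differences from -0.57 to 0.13. None passed by limma, and 5 (RPL34, RPL8, RPS15A and RPL21 among them) were lower at an unadjusted p under 0.05, against 3.71% of all features. RPL34, a protein of the large subunit, differed by -0.42 (adjusted p = 0.267), and RPL8, of the same subunit, by -0.54 (adjusted p = 0.545). RPL34 passed without CHX replicate 4 (limma adjusted p = 0.0407) and with the replicate number as a block (0.0341). The mean level of the list per array ran from -0.36 to 0.44 with CHX and from -0.15 to 0.42 without, so the groups overlapped widely. Without CHX replicate 4 the median was -0.47, and with that array turned -0.54. With 1 number left out of every group it lay between -0.36 and -0.12. The main axis of spread was oriented by ribosomal protein genes, and the CHX group had the lower mean on it (-8.33 against 0.67). How far the difference of this list follows that axis was not tested. Over all features 4834 of 11207 lay below 0.

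Of the ribosome biogenesis genes, 15 of 23 lay above 0, beside 56.9% of all features, and the median was 0.08. None passed by limma, and 5 were higher at an unadjusted p under 0.05, against 2.93% of all features. TAF1D, a subunit of the selectivity factor of RNA polymerase I, had no value on CHX replicate 4 and measured 0.08, -0.67 and 0.12 on the other 3, against -1.20, -1.95, -1.75 and -0.62 without CHX. CHX replicate 2 lay just below CORT replicate 4 (difference 1.22, SE 0.36, adjusted p = 0.244). NOP56, a core protein of box C/D small nucleolar particles, differed by 0.84 (adjusted p = 0.696) and BRIX1, an assembly factor of the large subunit, by 0.61 (adjusted p = 0.613). CHX replicates 3 and 4 were the high arrays for both.

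Translation factors had 22 of 39 below 0, beside 4834 of 11207 features. The median of -0.04 was -0.14 without CHX replicate 4 and -0.16 with that array turned. Among the lower ones were EEF1D and EEF1B2, exchange factors of elongation, at -0.63 and -0.48. EIF5A2, a relative of the factor that relieves stalled ribosomes, stood at -0.48. EIF6, which keeps the large subunit from joining too early and had no value on CHX replicate 4, differed by -0.56. The adjusted p of these factors ran from 0.653 to 0.737.

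Transcripts held down by nonsense-mediated decay depend on translation for their destruction. A list of known targets and factors of that pathway had 17 of 23 above 0, beside 56.9% of all features. Its median was 0.11. None of the members passed by limma. PTBP2, a neural splicing regulator whose own transcript is such a target, measured -0.10, -0.04, 0.70 and 0.51 with CHX and -1.0, -1.12, -1.01 and -0.63 without. The groups were well apart, but the adjusted p was 0.0917 (difference 1.21, SE 0.30). Its paralogue PTBP1 differed by 0.36 (adjusted p = 0.648) and AMD1, an enzyme of polyamine synthesis, by 0.52 (adjusted p = 0.316). SMG1, the kinase that starts the decay, differed by -0.46 (adjusted p = 0.666), with probes at -0.64 and -0.02.

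In cholesterol synthesis 12 of 18 genes were below 0, beside 4834 of 11207 features. The median was -0.08 (-0.14 without CHX replicate 4). MSMO1, a demethylating oxidase of the late pathway, measured -0.66, -0.44, -1.17 and 0.04 with CHX and -0.29, 1.15, 0.15 and 0.31 without, and the groups overlapped at the top of the CHX range (difference -0.89, adjusted p = 0.487). With the replicate number as a block MSMO1 passed (limma adjusted p = 0.0412). SQLE, squalene epoxidase, differed by -0.27 (adjusted p = 0.737). In the amino acid response list ATF4 was the only member of 18 to pass, and the median was -0.02. SARS1 and WARS, which charge serine and tryptophan transfer RNAs, stood at -0.11 and 0.12.

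The 34 measured genes of DNA replication and mitosis had a median of 0.02 and 5 members lower at an unadjusted p under 0.05, against 3.71% of all features, with 0 past the threshold. PCNA, the sliding clamp of DNA polymerase, differed by -0.49 (adjusted p = 0.515) and RRM2, a subunit of ribonucleotide reductase, by -0.87 (adjusted p = 0.664). The probes of PCNA disagreed, at -1.06 and 0.08. Medians of the proteasome (0.02, 28 genes), oxidative phosphorylation (-0.03, 34 genes), histone (0.01, 8 genes), circadian clock (-0.04, 9 genes), interferon-response (0.03, 14 genes) and transforming growth factor beta, bone morphogenetic protein and Notch (0.05, 20 genes) lists lay between -0.04 and 0.05, beside 0.03 over all features, and none of these held a member past the threshold. With CHX replicate 4 left out, the medians of the proteasome and histone lists were both -0.06. CRIM1, a membrane protein that binds bone morphogenetic proteins, differed by 0.56 (adjusted p = 0.63), with CHX arrays from -0.02 to 0.11 and CORT arrays from -0.67 to -0.31.

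Markers of other cell types were read the same way, and no member passed. Of all 11207 features, 6373 lay above 0 and 4834 below. Fibroblast and matrix markers were mostly lower (15 of 21 below 0, median -0.10), with OGN, the matrix proteoglycan mimecan, at -0.63 (adjusted p = 0.444). Without CHX replicate 4 OGN passed (limma adjusted p = 0.0365). Endothelial markers were mostly higher (12 of 14 above 0, median 0.08), as were those of red blood cells (6 of 6, median 0.13). Leaving out CHX replicate 4 gave medians of -0.15, 0.16 and 0.18 for these 3 lists. Array means of the endothelial list ran from -0.15 to 0.21 with CHX and from -0.20 to 0.24 without, and those of the red blood cell list from -0.14 to 0.19 and from -0.22 to 0.18. Medians for neuron and glia, immune cell, and cartilage and muscle markers were 0.06, -0.05 and 0.03, and 0.06, 0.01 and 0.11 without CHX replicate 4. The part of these cell types in the gene differences above was not tested.

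**Figure D3:**
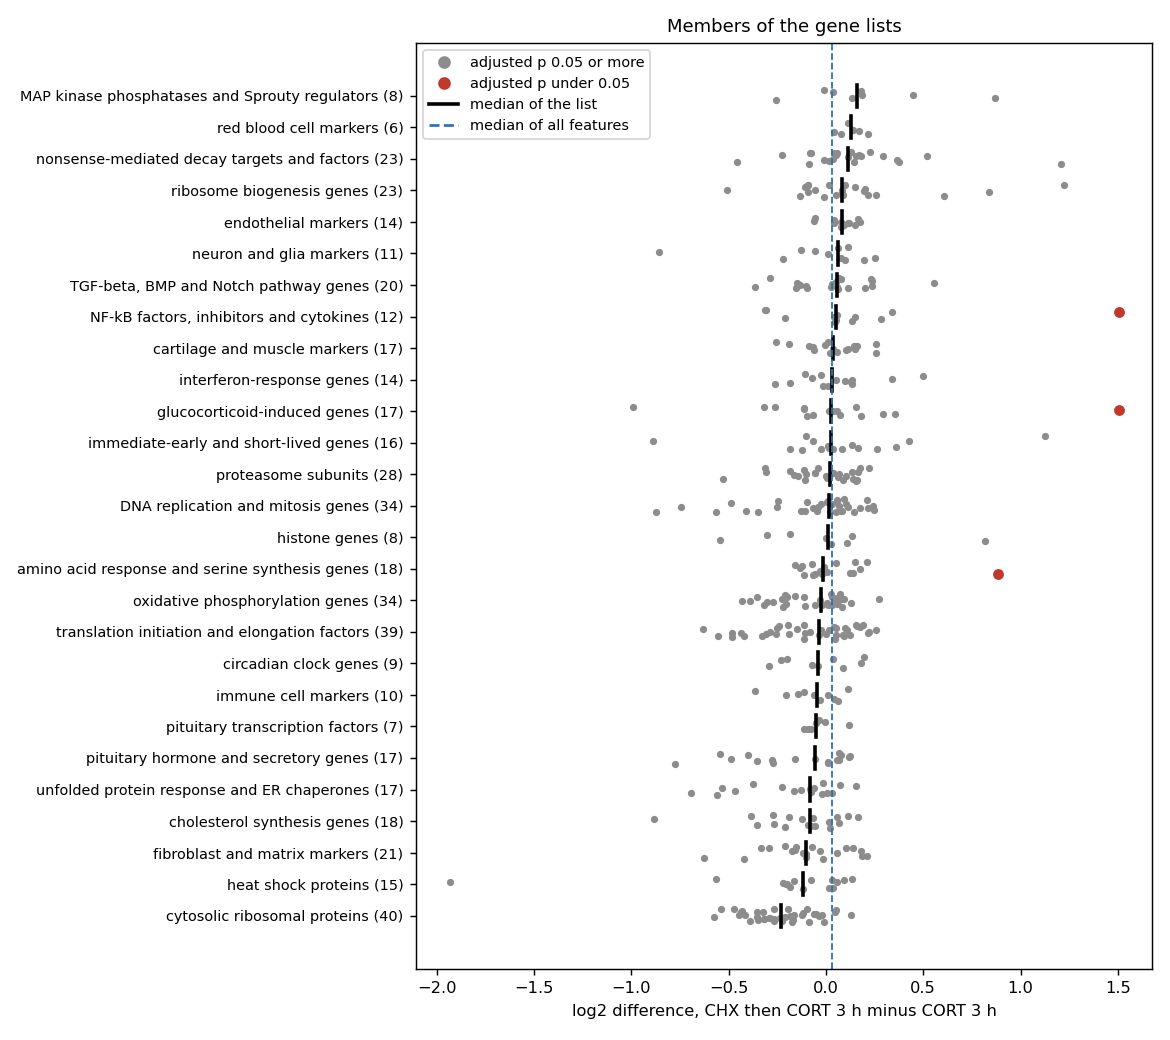
Log2 difference, CHX group minus CORT group (horizontal axis), of every measured member of 27 gene lists; grey points did not pass, red points passed, black bars are list medians and the dashed line is the median of all features (0.03). Ribosomal proteins lie furthest to the left by their median (-0.23), and the red points are NFKBIA, which is in 2 lists, and ATF4.

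The same contrast could be made at the other durations of CORT, on arrays not used above, though every array shared the pool and the fit shared 1 estimate of spread. Of the 11 named genes, all had the same sign at 1.5 h and 6 h, and 10 at 0 h, 12 h and 24 h, where CCNYL1 was the exception. Over all features the share of equal sign was 62.5%, 71.6%, 60.7%, 65.1% and 69.2% at 0, 1.5, 6, 12 and 24 h. At 1.5 h, 9 of the 11 also passed, against 44 of all features (0.393%), and 10 at 6 h, where 440 did (3.93%). At 12 h and 24 h 2 and 4 of them passed, against 157 (1.4%) and 555 (4.95%) of all features, and at 0 h 0 of them did, against 2 features (0.0178%). The count of 18 at 3 h was the lowest of the 5 durations with CORT.

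NFKBIA was higher with CHX at every duration, by 0.77 at 0 h, 1.14 at 1.5 h, 2.30 at 6 h, 1.80 at 12 h and 1.39 at 24 h, beside 1.51 at 3 h. It passed at each of these except 0 h. Without CHX its group means stayed between -1.27 and -0.91 across the 6 durations, whereas with CHX they ran from -0.23 ± 0.60 (SD, n = 4) at 0 h to 1.03 ± 0.41 at 6 h. CPSF4 showed a like course, from 0.42 at 0 h to 0.99 at 6 h. SAV1 had its lowest mean of the CHX groups at 3 h (-0.37 ± 0.31). Its difference passed at 6 h (-0.53, adjusted p = 0.0114), but not at 0, 1.5, 12 or 24 h, where it was -0.24, -0.47, -0.31 and -0.17. CCNYL1 differed by -0.54 at 1.5 h and -0.46 at 6 h, both past the threshold, but by 0.02 and 0.12 at 12 h and 24 h.

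**Figure D4:**
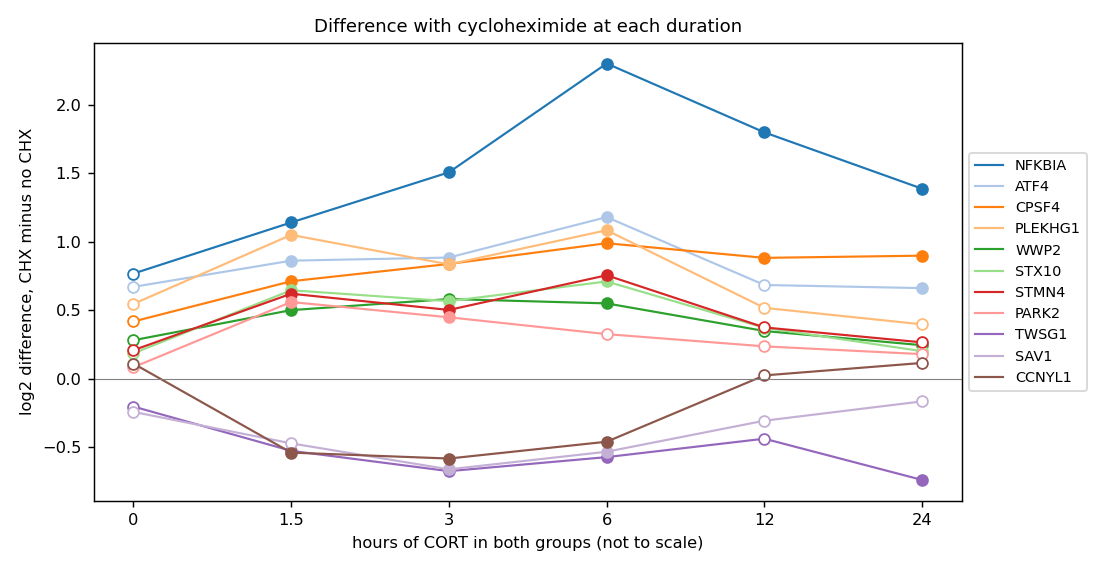
Log2 difference with minus without CHX (vertical axis) of the 11 named genes called at 3 h, at each duration of CORT (horizontal axis, not to scale); filled points passed the threshold at that duration. All 11 lines keep their side of 0 at 1.5 h and 6 h, and CCNYL1 crosses it at 0, 12 and 24 h.

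Several genes short of the threshold at 3 h passed at its neighbours. HSPA8 differed by -2.33 at 1.5 h and -2.54 at 6 h (adjusted p = 0.0227 and 0.00174), MGEA5 by -3.23 and -3.26 (adjusted p = 0.00823 and 0.000929), and JUN by 1.47 and 1.28 (adjusted p = 0.0182 and 0.0113). With all arrays in the fit, the difference of these genes at 3 h was the smallest in size of the 3 durations. Without CHX replicate 4 it was -2.47 for HSPA8 and -3.27 for MGEA5, no longer the smallest. For JUN it was 0.89, still the smallest. FKBP5 differed by 0.00 at 0 h and -0.01 at 1.5 h, and by 0.76 at 6 h (adjusted p = 0.0214). RASL10A differed by 0.21 at 0 h, -0.85 at 1.5 h and -1.26 at 6 h (adjusted p = 0.00615), and only the last of these passed. Its mean level went from -0.87 ± 0.82 (SD, n = 4) at 0 h to -0.16 ± 0.41 at 3 h with CHX, and from -1.08 ± 0.29 to 0.84 ± 0.23 without. FKBP5 went from -1.0 ± 0.58 to 0.05 ± 0.32 with CHX and from -1.0 ± 0.23 to 0.01 ± 0.11 without.

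Whether the effect of CHX changed between durations was tested directly. From 0 h to 3 h, 1.5 h to 3 h and 3 h to 6 h, limma called 0 of 11207 features (0%) in each case, with 162, 84 and 253 at an unadjusted p under 0.05. Each of the latter counts was below the share of 0.05 that such p-values give on average when nothing changes. The tests thus leaned to few calls, for reasons not tested, and 0 calls does not show equal effects. Counts of features called were 0 in all alternatives as well. RASL10A changed its difference by -1.21 from 0 h to 3 h (95% confidence interval -2.02 to -0.39, adjusted p = 1). The genes with the smallest unadjusted p in each direction were CSPG4, a chondroitin sulphate proteoglycan of the cell surface, at 1.01 and CCNYL1 at -0.69 from 0 h, BDH1A at 0.77 and ATN1, a transcriptional co-repressor, at -0.73 from 1.5 h, and MSMB at 0.98 and PTGR1, a reductase of prostaglandins, at -0.50 on to 6 h, all with adjusted p of 0.999 or more. For NFKBIA the change was 0.74 (95% confidence interval -0.05 to 1.53) from 0 h and 0.79 (0.00 to 1.59) on to 6 h. No gene's effect of CHX at 3 h was thus shown to differ from that at a neighbouring duration.

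**Figure D5:**
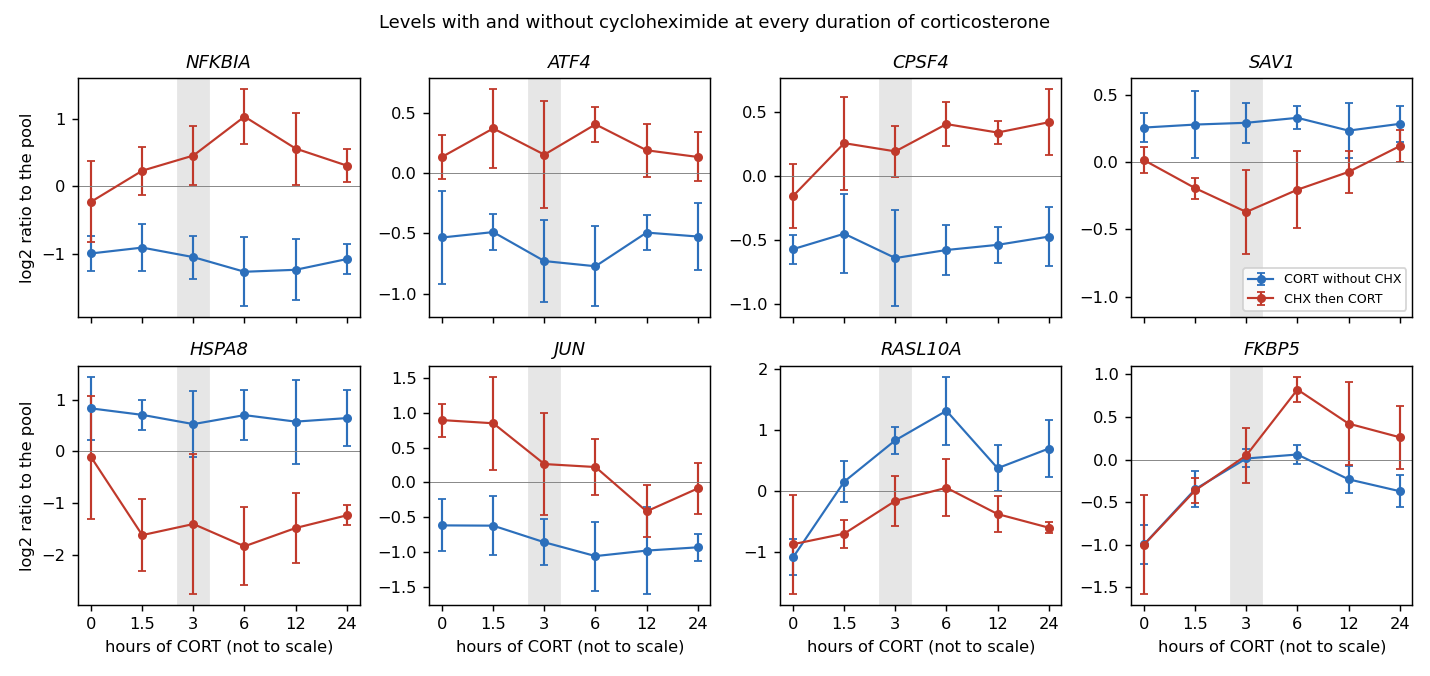
Mean log2 ratio to the pool with SD (vertical axes, 4 arrays a point) of 8 genes at each duration of CORT (horizontal axis, not to scale), with CHX (red) and without (blue); the 3 h pair is shaded. NFKBIA rises to 1.03 with CHX at 6 h and stays between -1.27 and -0.91 without it, and FKBP5 has nearly equal means in both groups at 3 h (0.05 and 0.01).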

How the data were processed

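The 48 samples (12 groups of 4) were each hybridised in Cy3 beside a Cy5 pool of all samples, per the labels' protocols. The deposited values are a log2 ratio per probe and array, as the authors computed it, for 19200 probes. The base of the logarithm and the direction are unstated. Among 739065 nonzero values, 632 matched, to 8 decimals, a quotient of integers under 200 in log2; 77 did so in natural log and 127 in log10. Array medians lay near 0 and SDs were alike; whether the authors centred or scaled the values is not stated, and either would hide unequal RNA totals. Background correction, normalisation and software are not given in the sources used here. Spot intensities were not used here, so signal over background is unknown and the number of arrays limits the precision.

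The annotation gave 1 gene symbol to 10601 probes, several to 0 and none to 8599; 10455 gene identifiers were in the RefSeq gene table (GRCg7b), and 146 probes kept an older symbol. No coordinates are given, since no build was named. Probes of 1 symbol were averaged, unnamed probes were kept singly, and features with fewer than 3 values in any group of 4 were dropped, which left 11207 of 15027 features (0.87% of values missing).

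All 48 arrays entered 1 group-means model in limma 3.58.1 (lmFit, eBayes, R 4.3.3), leaving 36 residual degrees of freedom. The model held no term for the replicate number. Two-sided p-values were adjusted by Benjamini and Hochberg's method over all features of a comparison, with a threshold of 0.05. The change of the difference between durations was tested in the same fit, and the procedure was tested on simulated data. The simulated noise was independent between features and arrays. That test therefore does not cover the main axis of spread seen in these arrays. Lists were described by counts and medians without a list test.

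Genes were named by rule. These were the genes past the threshold (up to 15 a direction, groups not overlapping), filled to 10 a direction by the smallest unadjusted p, up to 4 members of each list by the same, up to 5 genes a direction for each change between durations, and FKBP5, RASL10A, RASD1, PDK4 and JUN. ATF4 also enters through its list. SGK1, EGR1, GH, PRL, POMC and the unnamed probes fall outside the rule and were chosen after their values were seen. The comparison, the genes and the 27 lists (490 measured symbols) were chosen with earlier results of these data known.

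Besides the other alternatives (groups fitted, replicate block, array weights, scaling, filters, single probes, moderation, arrays left out), a further pair, the main axis of spread as a covariate and the sign of CHX replicate 4 turned, were chosen after seeing the data.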

Additional observations from a re-analysis of the deposited data

Results flagged for a closer look

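In 11 of 121 sets of 4 arrays examined among the named genes, 1 array lay so far from the next that the gap, as a part of the whole range, exceeded Dixon's 95% critical value for 4; chance alone gives about 1 in 20. Of these arrays, 5 were CHX replicate 4, the array that stood apart over all probes. It read 0.45 for EEF1D (next -0.53), 0.76 for EEF1B2 (next -0.34), 0.33 for RRM2 (next -0.67), 0.39 for OGN (next -0.68) and 0.018 for PRDX4 (next -0.19). CHX replicate 3 read 0.36 for PARK2 (next 0.09) and -1.68 for HEY1 (next -0.28). In the CORT group, replicate 1 read -0.26 for HEY1 (next 0.44), replicate 2 read 0.33 for SQLE (next 0.11), replicate 3 read 0.82 for CCNYL1 (next 0.48) and replicate 4 read 0.75 for RPL8 (next 0.00). PARK2 and CCNYL1 were the genes past the threshold among these. Without the array named, PARK2 (0.38, adjusted p = 0.496 by limma) and CCNYL1 (-0.49, adjusted p = 0.237) did not pass. Without CHX replicate 3, the array named for PARK2, no feature passed, so that loss is not particular to PARK2. Why these arrays differ was not tested.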

How the results depend on the processing

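The counts past the threshold (18 features, 11 named genes, 2 list members) depended on the fit more than the directions did. With the compared groups alone in the fit all 3 counts were 0, with 563 features at an unadjusted p under 0.05; that fit has fewer samples. With the replicate block they were 68, 41 and 7 (32 features higher, 36 lower); HN1, MGEA5, MYH10, TTC4, DUSP16, RAB24, HSPA8 and PTBP2 were among those gained (adjusted p from 0.00372 to 0.0492). Deviations from the group means correlated at 0.75, -0.24, 0.09 and 0.83 for numbers 1 to 4, and a pairing was taken only if every pair exceeded 0.1. The labels do not say what equal numbers share, and 3 of 4 CHX arrays correlated best with their own number. Over the whole study, arrays numbered 4 all lay above their group means on the main axis of spread. Those numbered 1 lay below, except in CHX then CORT for 12 h. Array weights gave 425, 231 and 32 (109 features higher, 316 lower). Quantile normalisation left 1 list member, centring on array medians 6 named genes and 1 list member, single probes 4 and 1, and moderation with trend 7 named genes. The axis of spread as a covariate gave 253, 146 and 26 (77 higher, 176 lower), and the turned sign of CHX replicate 4 gave 44, 26 and 7 (7 higher, 37 lower); both were chosen after seeing the data, and the first cannot move the differences of complete genes by its construction. Leaving out 1 array, or 1 replicate number in all groups, gave 0 to 41 features, 0 to 24 named genes and 0 to 4 list members. The cause was not tested for any of these.

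Of 1544 pairs of a gene and an alternative (62 genes, 25 alternatives), 1317 kept direction and side of the threshold, 127 lost and 91 gained a call, and 9 changed sign. FKBP5 turned to -0.17 with array weights, -0.073 and -0.032 without CHX replicate 3 or 4 (up to 0.149 without another array), -0.0235 and -0.0434 without number 3 or 4 in all groups, and -0.091 with the turned sign. With single probes SYDE2 was 0.18, RPL21 0.073 and IFIH1 0.089. NFKBIA and PLEKHG1 each passed in 19 of 25 alternatives, CPSF4 in 16, and WWP2 and SAV1 in 15. TWSG1 passed in 13 of these alternatives, CCNYL1 in 12, PARK2 in 11, ATF4 in 10, and STX10 and STMN4 in 9. The 3 tests of change between durations gave 0 in each alternative. Signal over background is unknown, so low-signal probes could not be set aside.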
